A study of Mus musculus with 16 samples.

Results

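Trimethylation of lysine 4 of histone H3 (H3K4me3) was examined at promoters where it was called in aged but not in young hematopoietic stem cells (HSCs). The 1352 peaks described here, called aged-only peaks, were selected from the pooled H3K4me3 list of aged HSCs by 3 criteria: a position on chromosomes 1 to 19, a distance of at most 1 kb from a protein-coding start site, and no peak of the pooled young list overlapping or within 1 kb. They were 24.9% of the 5431 promoter peaks of the aged list on these chromosomes, and the aged list held 6686 H3K4me3 peaks there in all. Another 3022 aged promoter peaks overlapped a young peak, here called peaks of both ages. The remaining 1057 did not overlap one but had one within 1 kb. In the opposite direction, 4148 of the 8918 young promoter peaks had no aged peak within 1 kb. These are called young-only peaks. The young list was longer, with 11279 H3K4me3 peaks on these chromosomes, and the counts in both directions depend on the lengths of the lists. A protein-coding gene had an aged-only peak at a promoter in 1325 of 20720 cases (6.39%). With the young list shortened to its strongest peaks in the number of the aged list, 2403 peaks at 2318 genes would be aged-only, while 747 of the 1352 peaks reached a −log10 q-value of 4.

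The HSCs came from bone marrow of C57BL/6 mice aged 10 weeks (young) or 20 months (aged) and were sorted as cells with Sca-1, c-kit and CD150 and without IL-7, lineage markers, CD34, CD48 or Flt3 (written IL-7- in the labels). The labels name no genetic change or treatment in either group, and cells of several mice were pooled before sorting. H3K4me3, H3K27me3 and H2AK119ub1 were each immunoprecipitated from the chromatin of both ages and sequenced (ChIP-seq) in 2 libraries per age, next to 2 libraries of input chromatin per age. One pooled peak list was used for each mark and age, so there was no replicate error and no difference between the ages could be tested.

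H3K4me3 is placed by the SET1/COMPASS and MLL complexes and is found on the nucleosomes that flank the start sites of active or poised genes, most often in CpG-rich promoters. H3K27me3 is placed by Polycomb repressive complex 2 and H2AK119ub1 by Polycomb repressive complex 1, and both are typical of silent developmental genes. Promoters that carry H3K4me3 and H3K27me3 together are known as bivalent. HSCs are the multipotent cells from which blood is formed throughout life, and with age their number in the marrow increases while their output of lymphoid cells declines.

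Ranked by the deposited −log10 q-value, the strongest aged-only call was at Ahdc1, a gene for an AT-hook DNA-binding protein. Next came Cnot1, the scaffold of the CCR4-NOT deadenylase, the shared promoter of Ptrh2 and Vmp1, Yeats4, a histone acylation reader, the shared promoter of Ccdc127 and Sdha, and Eed, a core subunit of Polycomb repressive complex 2. Stretches of these promoters are printed to show the sequence under the strongest aged-only calls or, for Yeats4, beside the call. They are in mm10, on the strand of the nearest gene, and capitals mark every match to a motif searched here. The Ahdc1 stretch (chr4:133011752-133012051, + strand) lies in an annotated intron and holds a CCAAT box, a pair of GC boxes and an interferon response match. The Vmp1 stretch (chr11:86683440-86683739, − strand, intron) held no match. The Ccdc127 stretch (chr13:74350409-74350708, + strand, intron) holds a CCAAT box and a GC box. The Yeats4 peak lay wholly in exons, so the 250 bases before its RefSeq start are shown (chr10:117224508-117224757, − strand). They lie outside the peak, in an annotated noncoding exon, and hold a CCAAT box and a palindromic NRF1 match.
Ahdc1: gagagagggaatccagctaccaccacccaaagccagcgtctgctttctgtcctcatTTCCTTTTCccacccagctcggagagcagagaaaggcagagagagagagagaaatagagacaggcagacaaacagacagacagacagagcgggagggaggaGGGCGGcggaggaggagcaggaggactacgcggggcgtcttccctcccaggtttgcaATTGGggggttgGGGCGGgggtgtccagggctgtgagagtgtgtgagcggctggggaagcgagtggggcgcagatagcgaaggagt
Vmp1: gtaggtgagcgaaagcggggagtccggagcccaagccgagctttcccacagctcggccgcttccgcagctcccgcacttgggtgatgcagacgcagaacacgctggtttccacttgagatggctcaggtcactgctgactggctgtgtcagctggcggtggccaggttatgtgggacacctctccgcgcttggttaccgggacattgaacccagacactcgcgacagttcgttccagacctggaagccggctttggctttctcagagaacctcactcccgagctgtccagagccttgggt
Ccdc127: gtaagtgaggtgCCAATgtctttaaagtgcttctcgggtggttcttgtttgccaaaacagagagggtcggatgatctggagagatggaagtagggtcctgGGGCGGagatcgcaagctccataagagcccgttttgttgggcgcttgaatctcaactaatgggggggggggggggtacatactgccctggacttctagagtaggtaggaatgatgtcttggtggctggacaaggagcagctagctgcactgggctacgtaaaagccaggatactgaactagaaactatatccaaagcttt
Yeats4: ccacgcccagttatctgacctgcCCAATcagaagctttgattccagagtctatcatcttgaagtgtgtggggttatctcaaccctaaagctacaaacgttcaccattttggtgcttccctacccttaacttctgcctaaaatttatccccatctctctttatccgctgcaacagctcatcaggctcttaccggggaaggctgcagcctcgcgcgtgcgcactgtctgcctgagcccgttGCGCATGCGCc

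The Ahdc1 peak (chr4:133011555-133012051) had a fold enrichment over background of 7.07, a −log10 q-value of 11.5 and a summit pileup of 31 reads over a background of 3.52 reads. Its edge was 49 bp from the start site, and the nearest young H3K4me3 peak was 118881 bp away. At Cnot1 (chr8:95807086-95807425) the fold enrichment was 6.85 and the peak covered the start site, with the nearest young peak 91388 bp away. The Ptrh2 and Vmp1 peak (chr11:86683238-86683815) had a fold enrichment of 6.63. Ptrh2 encodes a mitochondrial peptidyl-tRNA hydrolase and Vmp1 a membrane protein of autophagosome formation. At Yeats4 (chr10:117224268-117224488) the value was 6.06. The peak over the shared start of Ccdc127 and Sdha, the catalytic subunit of succinate dehydrogenase, reached 6.41 (chr13:74350331-74350748).

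Eed had 2 aged-only peaks. One covered its start site (chr7:89980714-89981154, fold enrichment 6.41, 28 reads at the summit), and the other lay 570 bp inside the gene (chr7:89980099-89980413, fold enrichment 5.97, 26 reads). The nearest young peak to either was at least 39026 bp away. The rest of the first 20 included peaks at Gpx1, Ubap1, Cnot2, Cct4, Zcchc9, Aars2, the shared promoter of Med22 and Rpl7a, Ppie, Poc1a, Spindoc, Tmbim6, Ahcy and Mtf1. Among these genes are the glutathione peroxidase Gpx1, the chaperonin subunit Cct4, the mitochondrial alanyl-tRNA synthetase Aars2, the S-adenosylhomocysteine hydrolase Ahcy and the metal-responsive transcription factor Mtf1. The 20th, at Mtf1, had a fold enrichment of 5.97 and a −log10 q-value of 8.79.

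Most aged-only peaks were modest calls, and their strength overlapped that of the other promoter peaks. Their median fold enrichment was 4.20 (quartiles 3.76 and 4.64, range 2.59 to 7.07), which was also the median of the peaks of both ages. The median −log10 q-value was 4.16 for aged-only peaks, 4.71 for peaks of both ages and 4.43 for young-only peaks. A −log10 q-value of at least 4 was reached by 747 aged-only peaks (55.3%), 66.7% of peaks of both ages and 61.9% of young-only peaks. Aged-only peaks had a median width of 260 bp (range 200 to 830), against 296 bp for peaks of both ages and 286 bp for young-only peaks. These values come from the calls that also selected the peaks, so they describe the selection.

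**Figure D1:**
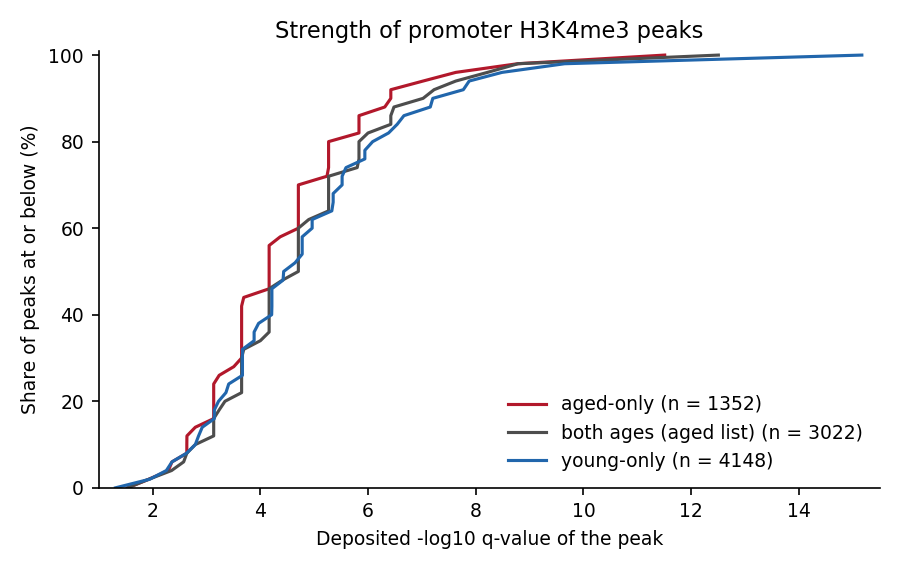
Cumulative share of promoter H3K4me3 peaks (vertical axis, percent) by the deposited −log10 q-value (horizontal axis), for aged-only peaks, peaks of both ages (values of the aged list) and young-only peaks. The 3 curves overlap over most of their range, with medians of 4.16 for aged-only, 4.71 for both ages and 4.43 for young-only peaks.

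The reads behind each call were few. The summit pileup of an aged-only peak, recovered from its fold enrichment and p-value, had a median of 19 reads (quartiles 17 and 21, range 14 to 31). A count of 19 has an exact 95% Poisson interval of 11.4 to 29.7 reads, and even the highest count of 31 has a lower bound of 21.1. Where the local background was lowest, the young list held peaks with as few as 13 reads. For 1113 of the 1352 aged-only peaks (82.3%), the lower bound of the aged count was under that number. The young pileup at these positions is not part of a peak list, so the size of the difference between the ages at a single promoter was not measurable here. The lowest background was 3.52 reads in the aged list and 3.70 in the young list. These intervals cover counting error only, and PCR copies of 1 molecule are not independent reads.

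The distance to the nearest young H3K4me3 peak, which the selection used, had a median of 42467 bp for aged-only peaks. The matching distance from young-only peaks to the nearest aged peak had a median of 67560.5 bp. Only 91 aged-only peaks (6.73%, Wilson 95% interval 5.51 to 8.19) had a young peak between 1 and 2 kb away, while 503 lay 10 to 50 kb away, 266 lay 50 to 100 kb away and 329 lay between 100 kb and 1 Mb away. The peaks next to the 1-kb limit show how the rule cut. Creb5 (1003 bp), Hnrnpa3 (1007 bp) and Gse1 (1012 bp) were just outside the distance from a young peak and were kept. Ddhd1 (998 bp), Mxd4 (998 bp) and Gja1 (988 bp) were just inside it and were not. For the distance to a start site, the last peaks kept were at Tspan5 (999 bp), Ptger3 (998 bp) and Map7 (998 bp), and the first left out were 1001, 1018 and 1025 bp away. The weakest calls kept were at Pdzd8, Ccdc171 and the shared promoter of D11Wsu47e and Fam104a, each with a −log10 q-value of 1.54.

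**Figure D2:**
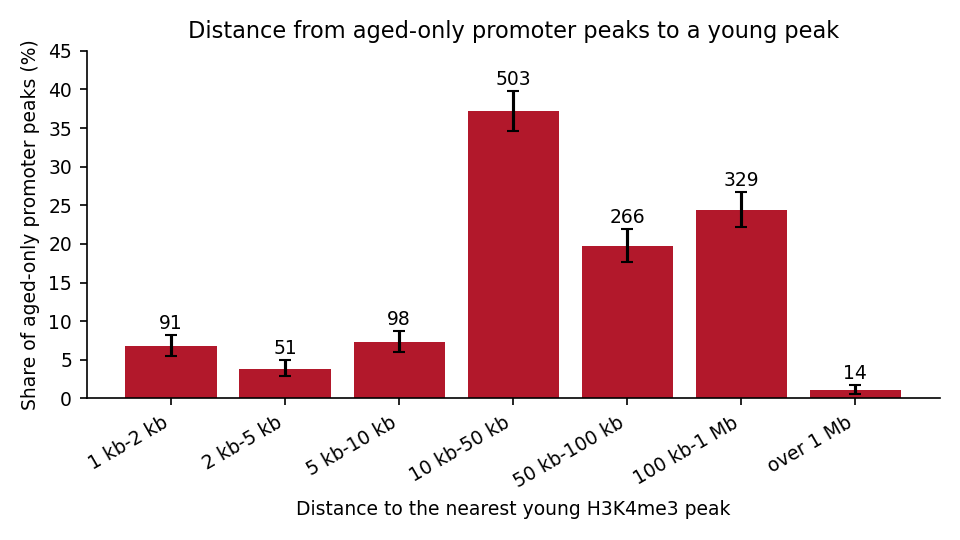
Share of the 1352 aged-only promoter peaks (vertical axis, percent, with Wilson 95% intervals) by distance to the nearest young H3K4me3 peak (horizontal axis), with the number of peaks above each bar. The bin from 10 to 50 kb holds 503 peaks, and 91 peaks lie between 1 and 2 kb.

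The 5 aged-only peaks farthest from a young peak were at Pcdh9, Nova1, Mdga2, Epha5 and Slc16a7. The farthest was at Pcdh9, a protocadherin, with the nearest young peak 4275206 bp away (fold enrichment 3.98). The RNA-binding splicing regulator Nova1 followed at 2550137 bp (3.62), Mdga2, a cell surface adhesion molecule, at 1946180 bp (4.86), the ephrin receptor Epha5 at 1654411 bp (4.00) and the monocarboxylate transporter Slc16a7 at 1590813 bp (3.96). All 5 had between 16 and 22 reads at the summit, within the range of the other aged-only peaks. The Nova1 peak overlapped a young H3K27me3 region, and the other 4 overlapped no region of either Polycomb mark at either age.

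Aged-only peaks sat on the flanks of start sites, with the usual preference for the first nucleosomes of the gene. Their summits were downstream of the nearest start site in 71.8% of cases, against 73.8% for peaks of both ages and 72.1% for young-only peaks. The window from 50 to 250 bp downstream held 399 of the aged-only summits (29.5%), the same percentage as for peaks of both ages, while 5.10% were within 50 bp of the start site. A start site was covered by 205 aged-only peaks (15.2%), 16.0% of peaks of both ages and 15.6% of young-only peaks. In the annotation, 522 aged-only peaks (38.6%) touched an untranslated region, 463 (34.2%) a coding exon, 446 (33.0%) lay in introns alone and 167 (12.4%) were intergenic.

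**Figure D3:**
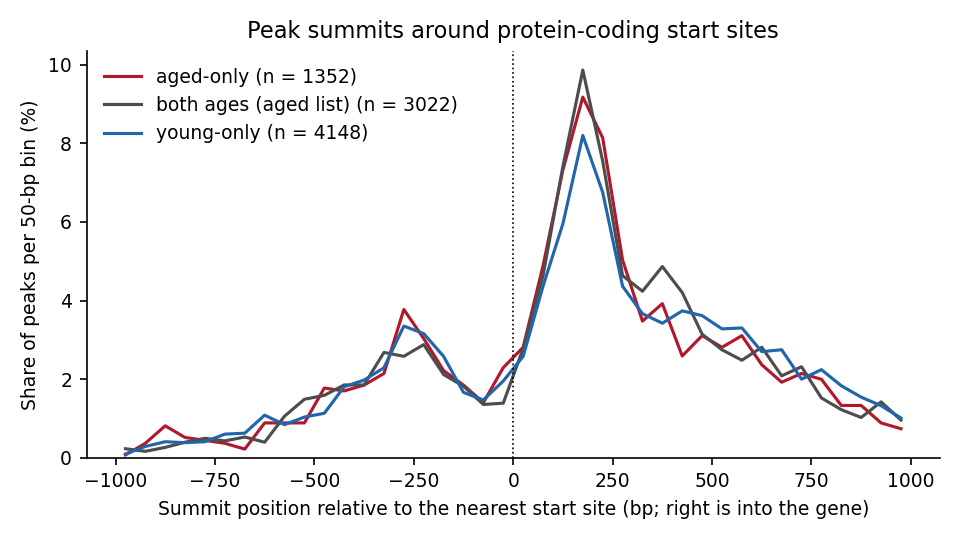
Position of peak summits relative to the nearest protein-coding start site (horizontal axis, bp, with positive values inside the gene) as the share of peaks in each 50-bp bin (vertical axis, percent). In all 3 groups the highest bins lie 50 to 250 bp downstream, a window that holds 29.5% of aged-only summits, with a lower rise upstream of the start site.

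The DNA under aged-only peaks had a higher GC content than that under peaks of both ages and young-only peaks. The median GC content was 59.5% (95% interval of the median 58.8 to 59.9) for aged-only peaks, 57.5% for peaks of both ages, 58.6% for the aged peaks with a young peak near but not overlapping, and 56.8% for young-only peaks. In the window of 150 bp on each side of the summit the median was 59.1% for aged-only peaks, against 59.5% around all protein-coding start sites. The density of CpG dinucleotides differed less. The median ratio of observed to expected CpG was 0.645 for aged-only peaks, 0.643 for peaks of both ages and 0.633 for young-only peaks. In the same window, 60.0% of aged-only peaks had a ratio of at least 0.6, against 57.0% of peaks of both ages, 55.4% of young-only peaks and 51.8% of all protein-coding start sites. The aged-only peaks were also narrower and weaker than the peaks of both ages, and the part of width and strength in this difference was not tested. Only 118 aged-only peaks (8.73%, 7.34 to 10.4) had start sites on both strands within 1 kb, compared with 15.1% (13.9 to 16.4) of peaks of both ages and 10.2% of young-only peaks.

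Short motifs of promoter factors were searched on both strands within 150 bp of each summit. The GC box bound by SP and KLF factors (GGGCGG) was found at 578 aged-only peaks (42.8%, 40.1 to 45.4), against 36.9% (35.2 to 38.7) of peaks of both ages, 34.6% of young-only peaks and 47.2% of all start sites. The CCAAT box (CCAAT) was at 24.5% of aged-only peaks, 25.7% of peaks of both ages and 33.9% of all start sites. The ETS motif CCGGAAG was at 6.21% of aged-only peaks, 8.14% of peaks of both ages and 11.3% of all start sites. The interferon response motif GAAANNGAA was at 99 aged-only peaks (7.32%), 8.11% of peaks of both ages, 9.45% of young-only peaks and 7.50% of all start sites. The STAT motif TTCCNGGAA was found at 6 aged-only peaks (0.444%, 0.204 to 0.965), 1.62% (1.23 to 2.14) of peaks of both ages, 1.23% of young-only peaks and 1.14% of all start sites. The AP-1 motif TGANTCA was at 60 aged-only peaks (4.44%), 3.57% of peaks of both ages, 4.27% of young-only peaks and 5.80% of all start sites. The ATF and CREB element TGACGTCA was at 13 aged-only peaks (0.962%), 0.596% of peaks of both ages, 0.554% of young-only peaks and 2.11% of all start sites. The CNC element TGCTGAGTC was at 3 aged-only peaks (0.222%), 0.430% of peaks of both ages, 0.313% of young-only peaks and 0.304% of all start sites. The motif AGATAAG of GATA factors (1.55%), TGTGGTT of RUNX factors (4.36%) and the E-box CACGTG of MYC (5.33%) were within 1 percentage point of their shares in peaks of both ages (1.85%, 3.74% and 5.00%). A match is a string of letters and does not show that a factor was bound.

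For the STAT, AP-1, CRE and CNC motifs, the stretch around the match is shown for the strongest aged-only peak that had one outside exons, with the named motif in capitals. The ATF and CREB element was at Ch25h, the cholesterol 25-hydroxylase gene (chr19:34475165-34475244, − strand). The AP-1 match was at Med22 and Rpl7a (chr2:26910145-26910251, − strand), the CNC match at Nedd4, a ubiquitin ligase gene (chr9:72662869-72662977, + strand, read from the opposite strand), and the STAT match at Aspscr1 (chr11:120673504-120673584, + strand). All 4 stretches lie in annotated introns.
Ch25h: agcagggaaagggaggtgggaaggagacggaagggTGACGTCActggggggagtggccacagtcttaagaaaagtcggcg
Med22: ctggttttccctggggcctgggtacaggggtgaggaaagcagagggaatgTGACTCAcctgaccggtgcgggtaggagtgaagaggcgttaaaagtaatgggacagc
Nedd4: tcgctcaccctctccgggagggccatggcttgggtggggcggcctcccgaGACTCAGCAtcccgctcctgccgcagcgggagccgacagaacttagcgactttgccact
Aspscr1: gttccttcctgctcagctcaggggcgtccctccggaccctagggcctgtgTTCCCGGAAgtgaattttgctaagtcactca

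Polycomb-associated marks covered a small share of the aged-only peaks, and a larger one than in peaks of both ages. The rule did not use these marks, so the comparison is between peaks that were selected on H3K4me3 alone. An aged H2AK119ub1 region overlapped 87 aged-only peaks (6.43%, 5.25 to 7.87), against 4.68% of all aged promoter peaks, 4.00% (3.36 to 4.76) of peaks of both ages and 6.29% of young-only peaks. Aged H3K27me3 overlapped 33 (2.44%, 1.74 to 3.41), against 1.49% of all aged promoter peaks, 0.927% (0.642 to 1.34) of peaks of both ages and 2.89% of young-only peaks. Young H3K27me3 overlapped 90 (6.66%, 5.45 to 8.11), against 3.79% of all aged promoter peaks, 2.45% (1.96 to 3.06) of peaks of both ages and 7.91% of young-only peaks. Young H2AK119ub1 overlapped 2 aged-only peaks (0.148%), against 0.129% of all aged promoter peaks. For each mark, the share in aged-only peaks was close to that in young-only peaks, with overlapping intervals.

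The overlap with young H3K27me3 was lower among stronger H3K4me3 peaks, and aged-only peaks included more weak calls. Among peaks whose −log10 q-value reached 4, young H3K27me3 overlapped 4.55% (3.28 to 6.29) of aged-only peaks and 1.83% (1.33 to 2.52) of peaks of both ages. Aged H2AK119ub1 overlapped 5.35% (3.96 to 7.21) and 3.57% (2.84 to 4.47), and aged H3K27me3 1.61% (0.921 to 2.79) and 0.892% (0.565 to 1.41). The interval of H3K27me3 in the young list stayed apart between the groups, whereas those of both aged marks overlapped. The intervals treat peaks as independent, which neighbouring peaks are not: 254 aged-only peaks (18.8%) had another aged-only peak within 1 kb.

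**Figure D4:**
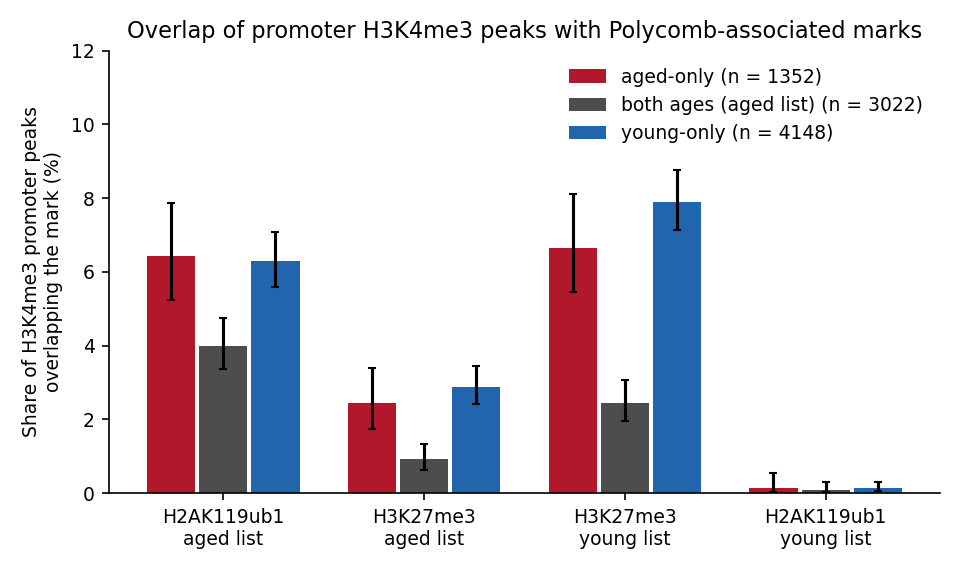
Share of promoter H3K4me3 peaks that overlap a region of H2AK119ub1 or H3K27me3 in the aged or young list (vertical axis, percent; error bars, Wilson 95% intervals over peaks). Aged-only peaks (6.43%, 2.44%, 6.66% and 0.148% from left to right) lie above peaks of both ages and near young-only peaks for the first 3 marks.

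Of the 90 aged-only peaks in young H3K27me3 regions, 31 were also in an aged H3K27me3 region and 59 were in a young region alone, while 2 peaks were in an aged region alone. For H2AK119ub1 the order was the reverse. All but 2 of the 87 overlaps were with the aged list alone. The broad lists differ in the same direction at the other promoter peaks: among peaks of both ages, 47 overlapped young H3K27me3 alone and 1 aged H3K27me3 alone, and 3.94% overlapped aged H2AK119ub1 alone and 1 peak young H2AK119ub1 alone. Both aged marks covered 19 aged-only peaks (1.41%), against 0.529% of peaks of both ages.

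The strongest aged-only peak within aged H2AK119ub1 was at Kcnj10, an inward rectifier potassium channel (chr1:172340781-172341052, fold enrichment 5.75, 25 reads), which was also in a young H3K27me3 region. Ch25h (5.31) and the homeobox gene Dlx5 (5.31, chr6:6881586-6881865) lay in aged H2AK119ub1 and in H3K27me3 at both ages. Hoxb9 (5.08) and Igf2bp2, an RNA-binding protein (5.08), lay in aged H2AK119ub1 and young H3K27me3. Among the strongest in aged H3K27me3 were also Fam107a (5.31), the forkhead gene Foxd1 (5.08) and the nucleotidase Nt5c1a (4.86). All 3 were in H3K27me3 regions at both ages and in no H2AK119ub1 region. These overlaps were measured in pooled cells, so whether the marks lie on the same allele or in the same cells cannot be told apart.

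Counted by gene, 248 of the 1325 genes with an aged-only peak (18.7%) had aged H2AK119ub1 at a promoter, against 14.4% of all genes and 13.6% of genes with any aged H3K4me3 promoter peak. Young H3K27me3 was at 153 of them (11.5%), against 15.8% of all genes and 7.19% of aged H3K4me3 genes. Aged H3K27me3 was at 65 (4.91%), against 8.20% and 3.38%, and young H2AK119ub1 at 22 (1.66%), against 2.00% and 0.988%. Most of these genes, 1209 (91.2%), had no young H3K4me3 peak at any promoter, and 77 of those had one elsewhere in the gene body. The other 116 had a young peak within 1 kb of a start site, which could be the same start site or another. Genes with an aged-only peak had 2 or more start sites in 59.5% of cases, against 51.8% of all genes, and 146 gene symbols carried 2 or more aged-only peaks. Among the 5061 genes with an aged H3K4me3 promoter peak, 26.2% had an aged-only one. The lists that follow can be set beside this share and the 6.39% of all genes. Their counts of young-only peaks have a separate reference, because the young list was longer. Of all 20720 genes, 3685 (17.8%) had a young-only promoter peak and 7325 had any young promoter peak.

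HSC identity genes were mostly marked at both ages. Of 10 HSC markers, 8 had an aged and 6 a young H3K4me3 promoter peak. An aged-only peak was present at Ctnnal1 (alpha-catulin, fold enrichment 4.20) and Mllt3, a YEATS-domain factor that maintains HSCs, whose 2 peaks (3.48 and 2.78) lay within 1480 bp of a young peak. Mllt3 also had a young-only promoter peak. None of the 7 B cell, 7 T cell, 9 myeloid, 7 erythroid and 7 megakaryocyte markers had an aged-only peak, and the myeloid and T cell lists had no H3K4me3 promoter peak at either age. One B cell and 1 megakaryocyte marker gene had an aged peak.

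Among 34 transcription factor genes of HSCs, 22 had an aged promoter peak, and 5 (14.7%, 6.45 to 30.1, or 22.7% of those 22) had an aged-only one, while 13 had a young-only one. The 5 were the LIM cofactor Ldb1 (fold enrichments 4.20 and 3.54), Mycn (4.20 at both of its peaks), the RUNX partner Cbfb (3.98), the immediate early gene Egr1 (3.76) and Hoxa9 (3.76). The Cbfb peak was 53734 bp from a young peak, while those of the other 4 genes had one within 4714 bp. Ldb1 and Egr1 also had a young-only promoter peak, so they had a promoter peak in both lists. In a list of 25 genes known to rise in aged HSCs, 4 (16.0%) had an aged-only peak: Ehd3, an endocytic recycling protein (4.42), Mycn, Cd38, an NAD-consuming ectoenzyme (2.92), and the phospholipid scramblase Plscr2 (3.31). As many genes of this list, 4, had a young-only peak, and 11 had any aged and 11 any young promoter peak. Selp and Clu, which the authors name as hallmark genes of aged HSCs, had no H3K4me3 promoter peak at either age. The Ehd3 peak was 242562 bp from a young peak.

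Signalling and stress-response regulators were represented by single genes. Of 34 AP-1, ATF and CNC factor genes, 4 had an aged-only peak (11.8%, 4.67 to 26.6), namely the endoplasmic reticulum stress factor Atf6b (fold enrichment 5.08), Creb5 (4.64) and the AP-1 partners Batf (4.38) and Batf3 (3.76). They were 21.1% of the genes of the list with an aged promoter peak, and 9 genes had a young-only peak. Creb5 also had a promoter peak of both ages. Of 35 JAK-STAT and interferon genes, 4 did (11.4%, 4.54 to 26.0): Stat5b (4.35), the interferon-gamma receptor Ifngr1 (4.42), the kinase Jak2 (3.87, 1013 bp from a young peak) and Pias3 (3.98). A young-only peak was at 14 genes of this list, and Stat5b and Jak2 also had a promoter peak of both ages. Il10rb, a shared receptor chain for interleukin-10 family cytokines (4.64 and 3.76), was the single case among 33 cytokine receptor genes, of which 10 had a young-only peak. None of 38 NF-kappaB and Toll-like receptor genes had an aged-only peak. The 17 of them with an aged promoter peak all had a young one.

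Polycomb genes had aged-only peaks in 6 of 36 cases (16.7%, 7.87 to 31.9), beside the 6.39% of all genes. Of the 19 Polycomb genes with any aged promoter peak this was 31.6%, beside 26.2% of all such genes. Besides Eed these were Rbbp4, a histone-binding subunit of Polycomb repressive complex 2 (fold enrichments 5.53 and 4.42), Phc3 (5.48), Pcgf5 (4.69), Pcgf2 (3.65) and Cbx2 (3.76), 4 subunits of Polycomb repressive complex 1. None of these 6 genes had a young H3K4me3 promoter peak, and none of the peaks themselves lay in a Polycomb region. Within 1 kb of a start site, however, Pcgf2 and Cbx2 had aged H2AK119ub1, and Cbx2 also young H3K27me3. Other subunits were listed the opposite way. Ezh2, the methyltransferase of Polycomb repressive complex 2, Suz12 and Ring1 had a promoter peak in the young list alone, and 14 Polycomb genes in all had a young-only peak. None of 22 H3K4 methyltransferase and demethylase genes had an aged-only peak, and the 10 with an aged promoter peak also had a young one. Dnmt3a, the de novo DNA methyltransferase, was the single case among 14 DNA methylation genes (5.08). Its peak lay 924 bp from a start site in an intron, and the gene also had a young promoter peak.

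Developmental genes seldom had H3K4me3 in the aged list. Where they had it in either list, it was often at a peak of that list alone. Of 80 developmental transcription factor genes, 7 had an aged promoter peak and 4 an aged-only one: Dlx5, Otx1 (fold enrichments 3.98 and 3.76), Lhx9 (3.54) and Otx2 (2.87). Lhx9 also had a young-only promoter peak. All 80 genes had young H3K27me3 at a promoter. Of 39 clustered Hox genes, 4 of the 5 with an aged promoter peak had an aged-only one (Hoxb9, Hoxb6 at 4.42, Hoxa9 and Hoxb1 at 3.13). Potassium channel genes had one in 5 of 92 cases, led by Kcnj10 and Kcna3 (3.98). The young list held more developmental factor and Hox genes. Of 19 developmental factor genes with a young promoter peak, 16 had a young-only one, as did 6 of 9 such Hox genes. Potassium channel genes had any aged peak in 10 cases, any young peak in 9 and a young-only one in 2.

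Genes of the core machinery of protein synthesis, respiration, turnover, folding and splicing were counted in 6 lists. Ribosomal protein genes had an aged-only peak in 12 of 79 cases (15.2%, 8.91 to 24.7), among them Rpl7a (fold enrichment 6.19), Rpl31 (4.86), Rps10 (4.64) and Rps27 (4.64). The Rpl7a peak was 1106 bp from a young peak. A young-only peak was at 26 ribosomal protein genes. Mitochondrial ribosomal protein genes had an aged-only peak in 9 of 78 cases, led by Mrps18c (5.31), against 25 with a young-only peak. Respiratory chain genes had one in 7 of 99, including Sdha and the complex I subunit Ndufb6 (5.53), and 28 had a young-only peak. Proteasome genes had one in 4 of 49 (Psmb1, Psmc1, Psmd1 and Psma7), against 17 with a young-only peak. Chaperones had one in 6 of 38 (15.8%, 7.44 to 30.4), including Cct4 (6.19), Dnajb4 (4.64), Hspa1b (4.64) and Hsp90ab1 (4.18, 1061 bp from a young peak), against 11 with a young-only peak. The Dnajb4 peaks were 2034 and 1098 bp from a young peak, and the gene also had a young-only promoter peak. Splicing genes had an aged-only peak in 8 of 63, led by Srsf2 and Snrnp70 (both 5.08), with Srsf11 and Prpf6 below them. A young-only peak was at 16 splicing genes, Srsf2 among them, and Srsf11 also had a promoter peak of both ages.

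DNA repair genes had an aged-only peak in 8 of 77 cases (10.4%, 5.36 to 19.2, or 21.1% of those with an aged promoter peak), and 23 had a young-only peak. The homologous recombination gene Brca2 (fold enrichment 4.86) and the end-joining gene Xrcc4 (4.64) were the first, followed by the excision repair gene Ercc1 (3.68) and the mismatch repair gene Msh6 (4.42). Cell cycle genes had one in 3 of 63 cases, the inhibitor Cdkn2c (4.64), Ccnl1 (3.98) and E2f4 (3.98). The Cdkn2c peak also lay in a young H3K27me3 region. Cdkn2c had a promoter peak of both ages as well, and Ccnl1 a young-only one. A young-only peak was at 23 cell cycle genes. Autophagy and lysosome genes had one in 3 of 40 (Atg10, Rb1cc1 and Atg16l1), against 5 with a young-only peak. Zinc finger genes had one in 42 of 459 (9.15%), Rab GTPase genes in 8 of 65 and solute carrier genes in 16 of 329 (4.86%), against 110, 19 and 50 with a young-only peak. No aged-only peak was at any of 44 ubiquitin-specific peptidase, 67 replication-dependent histone or 1452 olfactory and vomeronasal receptor genes. Of the 34 lists, 19 had a larger share of such genes than the 6.39% of all genes, 5 a smaller one and 10 had none. The 20720 genes behind that share include 15659 without an aged H3K4me3 promoter peak, and the lists were not tested against all genes or one another. Among genes with an aged promoter peak, 26.2% had an aged-only one, and the lists lay on both sides. The share was 12.5% for autophagy and lysosome, 13.2% for respiratory chain, 17.4% for proteasome and 18.6% for splicing genes. It was 27.3% for chaperone, 28.1% for mitochondrial ribosomal protein and 32.4% for ribosomal protein genes.

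**Figure D5:**
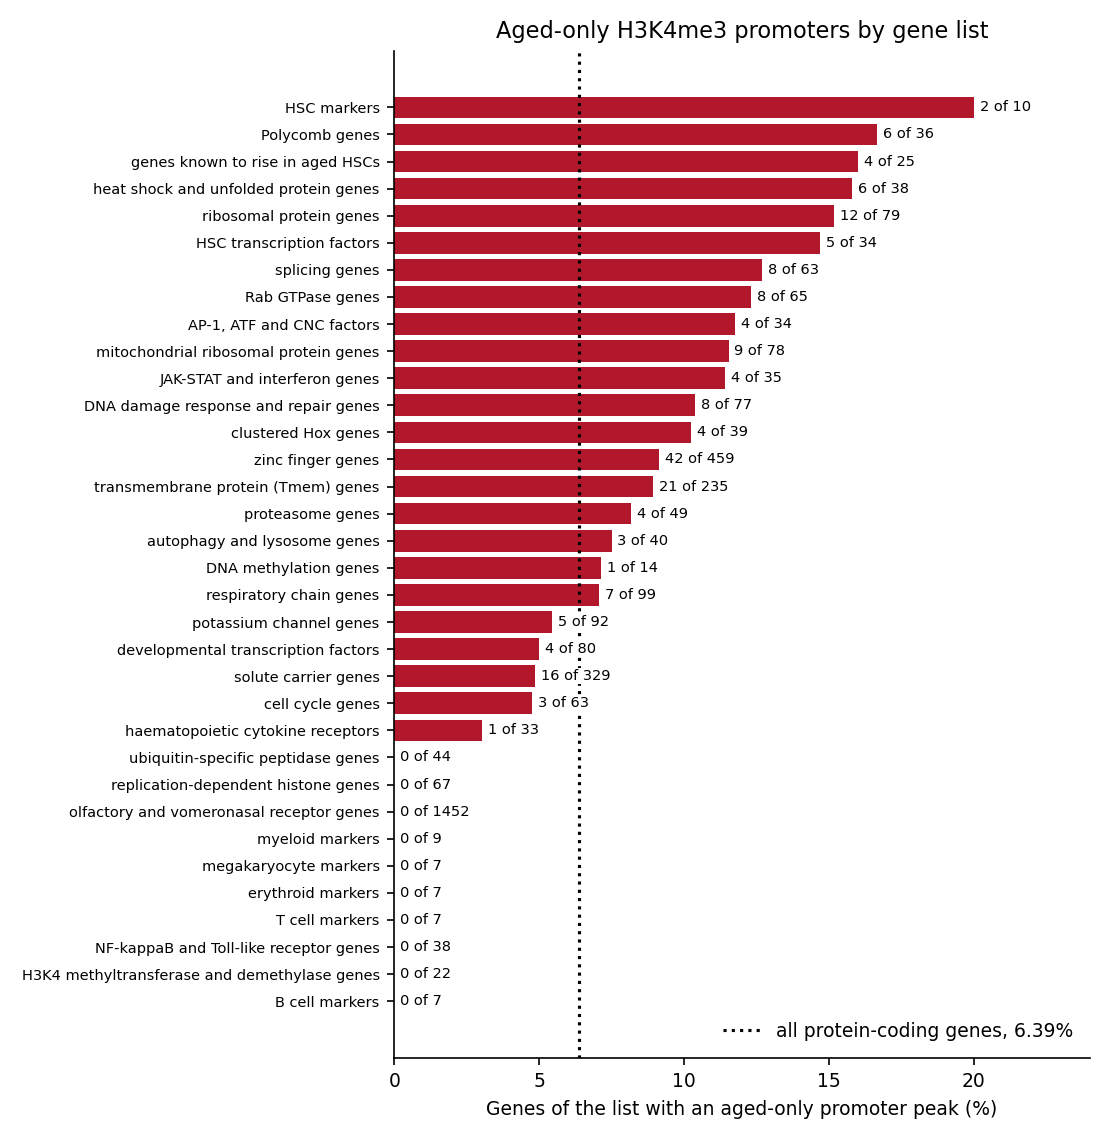
Share of genes in each of 34 lists that had an aged-only H3K4me3 promoter peak (horizontal axis, percent), with the number of genes beside each bar. The dotted line marks the 6.39% of all protein-coding genes, and 6 of 36 Polycomb genes and 12 of 79 ribosomal protein genes lie to its right.

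Aged-only peaks were spread over all 19 chromosomes. They made up from 19.2% of the aged promoter peaks on chromosome 1 to 30.5% on chromosome 17.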

How the data were processed

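ChIP-seq of H3K4me3, H3K27me3 and H2AK119ub1 was performed on young and aged HSCs. The authors used micrococcal nuclease followed by sonication to fragment the chromatin, and Bowtie2 to align single reads to mm10. The submitters' processing notes also name MACS2 2.2.6. The deposited lists give each peak's fold enrichment as a linear ratio and the −log10 of its p-value and q-value. Names in the broad lists carry 1 library number, so whether these lists hold both replicates is uncertain. Duplicated and multiply aligned reads and the caller's threshold all affect which peaks are listed.

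The 6 pooled lists were compared in Python 3.11.15 (numpy 2.4.6, pandas 2.3.3, scipy 1.17.1) by overlap of at least 1 bp. Start sites were those of protein-coding transcripts in the GENCODE M21 basic annotation. Sequence was read with pysam 0.24.0 from GRCm38, the assembly of mm10, and from RefSeq. Figures were made in matplotlib 3.10.9. The lists hold no total read counts. The summit pileup and background were recovered from fold enrichment, (pileup + 1) / (background + 1), and the Poisson p-value, and this succeeded for 100% of H3K4me3 peaks. The code was tested on simulated data. Shares carry Wilson 95% intervals, which cover counting error over peaks only. With 1 list per age, there was no test of age.

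The peaks, gene lists and motifs were chosen with earlier results of these data known. Genes were named by rule: the 20 aged-only peaks of highest −log10 q-value, the 5 farthest from a young peak, the 5 strongest under each aged Polycomb mark, and those at genes of the lists, up to 4 for the larger lists. Genes with several aged-only peaks were also in the rule, and since there were 146, they are given as a count. Some genes that the rule names are not reported here. Alternatives for the distances, the q-value, the start sites and the overlap were computed.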

Additional observations from a re-analysis of the deposited data

Results flagged for a closer look

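Chromosome X was outside the comparison. There the aged list held 29 promoter H3K4me3 peaks, of which 17 had no young peak within 1 kb. On chromosomes 1 to 19 this held for 1352 of 5431 aged promoter peaks (24.9%), a smaller share. The 17 peaks were weak to moderate calls. The highest fold enrichment was 4.64 at the kinase gene Nrk, and others lay at Uba1 (3.54), the ubiquitin-activating enzyme, and Nkrf (4.00), a repressor of NF-kappaB target genes. These 3 genes were picked from the 17 after their values were seen. No test was possible with 1 list per age.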

How the results depend on the processing

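No paired analysis was possible because only pooled lists were used, 1 per mark and age, and for the same reason no replicate could be left out. Of 56 recomputed values, 39 were classed as the same as the main value. For counts of peaks and genes, this class allowed shifts larger than counting error. With start sites within 500 bp, for example, there were 1121 aged-only peaks instead of 1352. The number of aged-only peaks was 2409 when only overlap with a young peak was excluded, 747 when the −log10 q-value had to reach 4, and 2403 when the young list was cut to the strongest peaks in the number of the aged list. The number of genes was 2453, 770 and 2318 in these cases. The overlap with young H3K27me3 was 4.55% at that q-value, 5.20% with the shortened young list, 4.96% when the region had to cover 0.5 of the peak, and 10.5% when it could lie within 1 kb. Aged H2AK119ub1 overlapped 4.36% with 0.5 of the peak covered and 17.1% within 1 kb, and aged H3K27me3 overlapped 1.61% at the higher q-value and 4.88% within 1 kb. With start sites within 500 bp, the median GC content was 60.4% and the share over a start site 18.3%, and with 1 start site per gene that share was 9.85%. The counts of peaks and genes follow from the construction of each alternative. For the shares and the GC content the cause was not tested. About 19 reads per summit limit what a missing young peak can show.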

Other observations

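Cnot1 and Cnot2, 2 of the first 10 aged-only peaks by −log10 q-value, encode subunits of the CCR4-NOT complex, which shortens mRNA tails. The other subunits were therefore looked up after these values were seen. Of 11 Cnot genes, 4 had an aged-only promoter peak (Cnot1, Cnot2, Cnot7 and Cnot8), 6 had any aged and 8 any young H3K4me3 promoter peak. Cnot2 also had a young-only peak at a promoter, and its aged-only peak lay 1466 bp from a young peak. Cnot10, Cnot11, Cnot4, Cnot6 and Cnot6l had a promoter peak in the young list alone. Cnot1 and Cnot2 prompted the lookup, so it added only Cnot7 and Cnot8 to the genes with an aged-only peak. Among all protein-coding genes 6.39% had an aged-only peak, and among those with an aged promoter peak 26.2%. The count of Cnot genes has no test.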
